A study of Mus musculus with 2 samples.

Results

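The troponin genes encode the 3 subunits of the calcium switch of striated muscle, and they were followed here in 2 mouse tumours on single-colour Agilent arrays. Their 8 members are Tnnt1, Tnnt2 and Tnnt3 for the T subunit, Tnni1, Tnni2 and Tnni3 for the I subunit, and Tnnc1 and Tnnc2 for the C subunit. They were chosen by gene name among the non-control spots, with every probe kept, which gave 12 of 43379 spots and 8 of 28786 named genes or transcripts. The choice used no measured value. Of the members, 4 had 1 probe and 4 had 2, and no further probe carried a troponin accession under another name.

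Both tumours, called tumour 2 and tumour 1 without any order, grew from RMS3, a mouse line that the labels call PRMS without spelling it out. For each, 1000000 RMS3 cells in 200 µl of PBS were injected under the skin of a male C57BL/6J mouse, and total RNA was taken from the tumour 2 weeks later. All tissue therefore comes from 1 line in hosts with their own skin, vessels and muscle, there is no uninjected or cultured control, and the protocol text calls the harvested tumours metastatic although the other labels place them at the injection site. Since every difference sets 1 tumour against 1 other, it has no replicate check and was not tested, and having only 2 arrays limits how precise any value is.

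In a muscle fibre the troponin complex sits on the thin filament together with tropomyosin. Troponin C binds calcium, troponin I holds back the actin and myosin interaction while calcium is low, and troponin T anchors the complex to tropomyosin. Each subunit comes in isoforms that mark fibre types: Tnnt3, Tnni2 and Tnnc2 in fast skeletal fibres, Tnnt1 and Tnni1 in slow ones, Tnnc1 in slow fibres and heart, and Tnnt2 and Tnni3 in heart, with Tnnt2 also used for a time in embryonic skeletal muscle.

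RefSeq promoter sequences (GRCm38.p6) were given for 6 of the 8 genes. Tnnt3 and Tnni2 had none. The 250 bases before the transcription start are shown for the cardiac T gene and for both C genes, the slow and the fast form of one subunit, since these stand for the 3 isoform classes whose transcripts are described next. Capitals mark the E-box CANNTG, the letters that myogenic bHLH factors bind, and CATTCC on either strand, the core of the muscle MCAT element.
Tnnt2, chr1:135836084-135836333, plus strand: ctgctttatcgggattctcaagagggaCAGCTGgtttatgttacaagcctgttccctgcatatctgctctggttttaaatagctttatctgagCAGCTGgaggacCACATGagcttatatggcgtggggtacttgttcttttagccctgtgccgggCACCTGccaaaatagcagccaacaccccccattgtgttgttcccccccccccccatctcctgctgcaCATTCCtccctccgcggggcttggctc
Tnnc1, chr14:31208062-31208311, plus strand: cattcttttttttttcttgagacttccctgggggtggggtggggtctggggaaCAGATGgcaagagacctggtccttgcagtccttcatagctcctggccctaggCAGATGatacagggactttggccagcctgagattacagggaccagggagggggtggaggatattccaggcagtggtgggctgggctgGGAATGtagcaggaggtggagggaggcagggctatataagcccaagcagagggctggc
Tnnc2, chr2:164779735-164779984, minus strand: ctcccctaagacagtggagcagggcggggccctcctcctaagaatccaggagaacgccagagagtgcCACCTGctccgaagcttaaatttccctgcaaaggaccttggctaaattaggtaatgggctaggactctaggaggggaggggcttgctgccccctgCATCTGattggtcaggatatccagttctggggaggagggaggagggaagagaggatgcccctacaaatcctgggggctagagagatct
The Tnnt2 window holds 4 E-boxes, 2 of them CAGCTG, and 1 CATTCC that begins 27 bases before the start. A second Tnnt2 window in the table holds 1 E-box and no CATTCC. The Tnnc1 window holds 2 E-boxes and 1 CATTCC, written GGAATG on the gene strand. The Tnnc2 window holds 2 E-boxes and no CATTCC. Of 32851 promoter windows of the same length, 66.2% hold an E-box, 13.0% hold CAGCTG and 12.6% hold CATTCC. These letter matches are a description and were not set against the levels.

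Troponin transcripts of the fast, the slow and the cardiac class were present in both tumours. The scanner software called 11 of the 12 probes well above background on both arrays, and at least 1 probe of each of the 8 genes, whereas 59.2% of all genes were detected on both arrays. The exception was the second Tnnt2 probe, A_52_P430110, which was designed on a cDNA clone from embryo head and had processed signals of 3.41 in tumour 2 and 4.49 in tumour 1, each about as large as its own error of 3.40 and 4.48. Levels of different probes are not comparable, so each probe is read only against its own background and between the tumours.

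The scanner software marked 69 spots as outliers on array 2 and 1128 on array 1, where they lie in bands. With every spot kept, repeat spots of detected probes had an SD of 0.13 on array 2 and 0.88 on array 1 (log2). Flagged spots of either array were left out of the levels and differences. Spots within 2 rows and columns of a flag on array 1, or of a spot with local background above 100 on array 2, were therefore left out too. Spots beside flags of array 2 were kept, so near and away from flags refer to array 1. These steps removed 27.8% of the non-control spots. This left 10 troponin probes, of which 9 were detected on both arrays, and 7 of the 8 genes, against 61.2% of all genes. The other 2 probes, A_51_P338262 for Tnnt2 and A_51_P345699 for Tnnt3, lay near flags and are described with their neighbours further on. Away from flags, repeat spots of detected probes had a standard deviation of 0.14 on array 2 and 0.23 on array 1 (log2). Together these give a technical SD of 0.27 for a difference, which holds only the scatter of spots within each array. It leaves out any technical difference between the arrays as a whole.

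**Figure D1:**
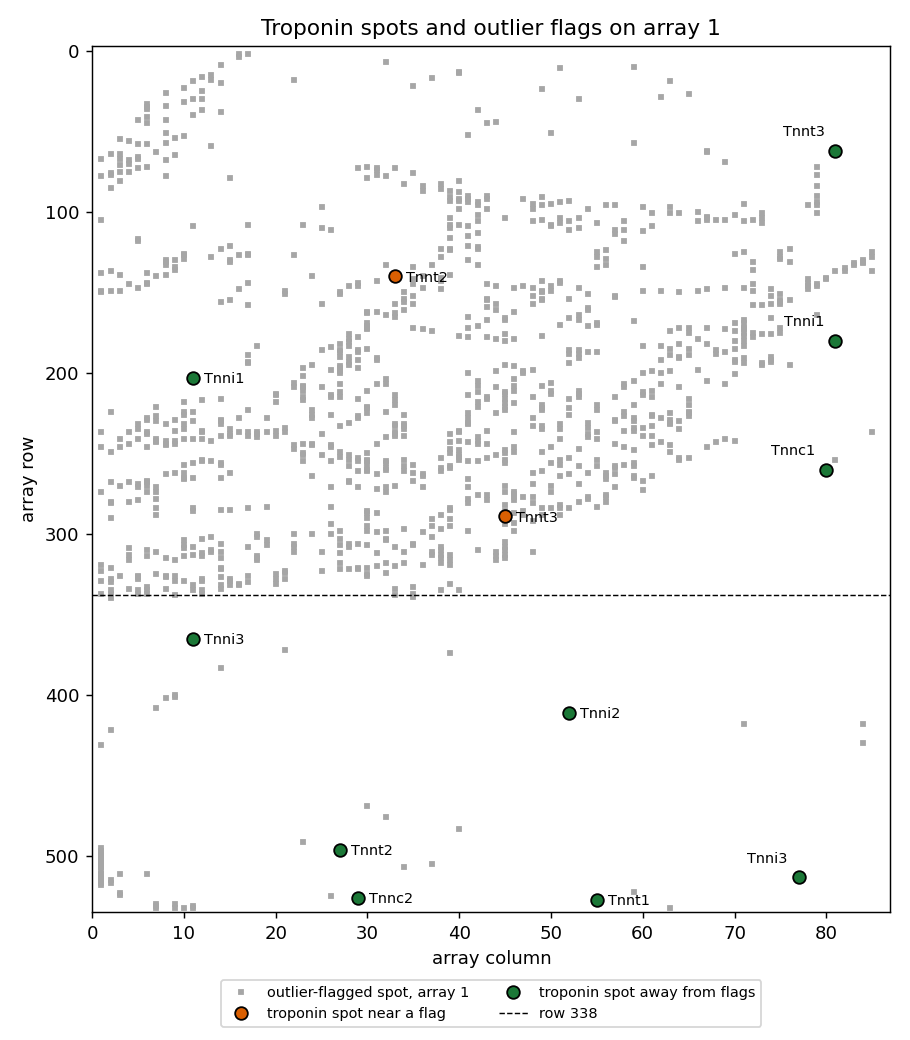
Position of the 12 troponin spots (circles) and of the outlier-flagged spots (grey squares) on array 1, by array column and row. The Tnnt2 and Tnnt3 spots in orange lie among flagged spots above row 338 (dashed line), and the 10 green spots lie outside the 2 rows and columns around any flag of array 1.

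The fast class gave bright signals in both tumours. Tnni2, the fast inhibitory subunit, had a processed signal of 5756 in tumour 2 and 5120 in tumour 1, which was 120 and 111 times the median of its local background before subtraction. Tnnc2, the fast calcium sensor, had 4102 in tumour 2 and 3670 in tumour 1. For Tnnt3, the fast tropomyosin-binding subunit, the probe away from flags (A_52_P622418) had 1087 in tumour 2 and 1050 in tumour 1. The tumours lay close together on all 3 probes, with tumour 2 slightly higher on each.

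The slow class was detected as well. Tnnt1, the slow T subunit, had a processed signal of 648 in tumour 2 and 504 in tumour 1. Tnnc1, the calcium sensor of slow fibres and heart, had 424 in tumour 2 and 466 in tumour 1. Scaled to its array, the Tnnc1 level was the same in both tumours to 0.01. Tnni1, the slow inhibitory subunit, was read by 2 probes that went opposite ways: A_51_P435704 gave 161 in tumour 2 and 118 in tumour 1, and A_52_P657360 gave 209.6 in tumour 2 and 256 in tumour 1. The order of the tumours for Tnni1 thus depended on the probe.

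The cardiac class differed in how far it stood above background. Tnni3, the cardiac I subunit, was weak: A_52_P563123 had 100.1 in tumour 2 and 80.1 in tumour 1, and A_51_P386983 had 61.9 in tumour 2 and 39.8 in tumour 1, with mean signals of only 2.46 and 2.03 times the local background for the second probe. These signals still exceeded the lowest that the software called above background (12.4 for tumour 2, 18.1 for tumour 1), and both probes were higher in tumour 2. Tnnt2, the cardiac T subunit, was bright on A_51_P338262, with 2619 in tumour 2 and 4760 in tumour 1, or 60.3 and 96.6 times the local background. The flag beside that spot was found on array 1. Its detection in tumour 2 is read from array 2, where flags around the troponin spots were not counted.

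**Figure D2:**
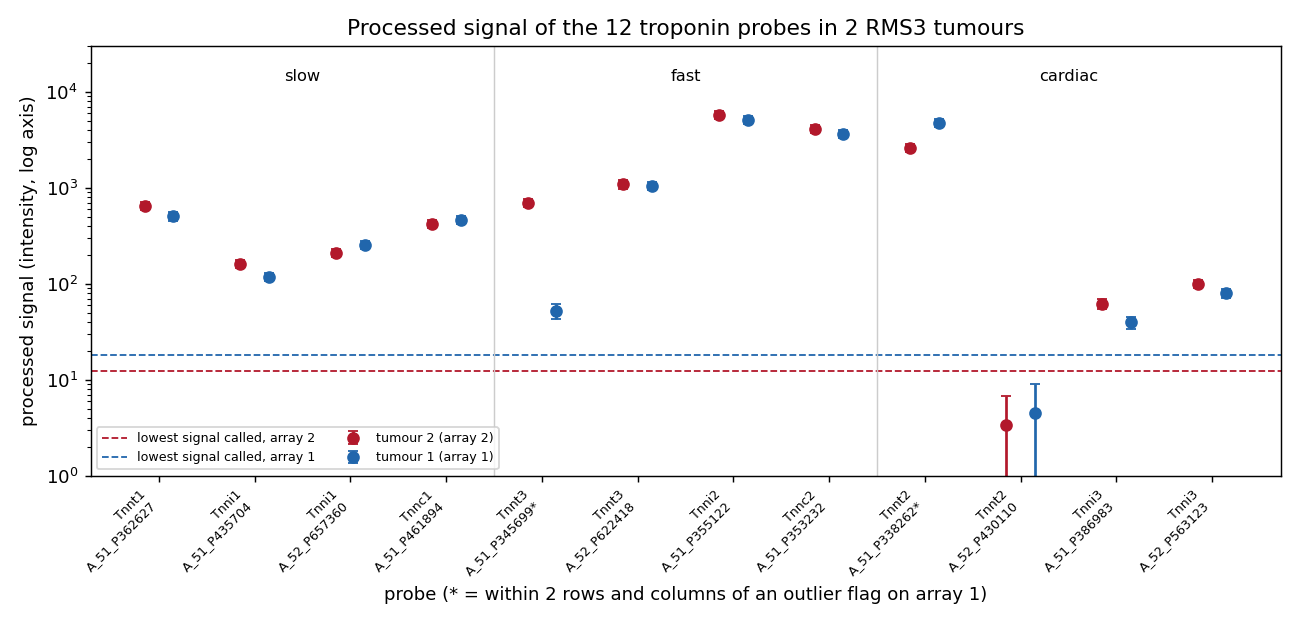
Processed signal (intensity, log axis) of each troponin probe in tumour 2 (red) and tumour 1 (blue), with the error given by the scanner software as bars and the lowest signal called well above background as dashed lines. The tumours lie within 2-fold of each other on each detected probe except the Tnnt3 probe A_51_P345699, at 701 in tumour 2 and 51.9 in tumour 1, and one Tnnt2 probe stays below both lines.

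On a common scale none of the 7 troponin genes measured away from flags was 2-fold apart between the tumours. Levels here are log2 processed signals minus the 75th percentile of the array, given as mean ± SD of the 2 tumours. By this measure 6.45% of all 13945 genes were at least 2-fold apart, 2.59% higher in tumour 2 and 3.87% higher in tumour 1. The troponin count of 0 stands beside that share and, over 7 genes, lies near it.

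Among the fast genes, Tnni2 lay at 2.67 in tumour 2 and 2.36 in tumour 1 (2.52 ± 0.22, n = 2), so that tumour 2 minus tumour 1 gave 0.31. Tnnc2 lay at 2.19 in tumour 2 and 1.88 in tumour 1 (2.03 ± 0.21, n = 2), which differ by 0.30. Tnnt3 lay at 0.27 in tumour 2 and 0.08 in tumour 1 (0.17 ± 0.14, n = 2), a difference of 0.19 that is smaller than the technical SD. The I and C genes of the fast class thus differed by almost the same amount, just above that SD.

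Among the slow genes, Tnnt1 lay at -0.48 in tumour 2 and -0.98 in tumour 1 (-0.73 ± 0.36, n = 2), which differ by 0.50 or 1.42-fold. Tnnc1 lay at -1.09 in both tumours, a difference of 0.01. The Tnni1 probes differed by 0.59 on A_51_P435704 and by -0.15 on A_52_P657360, and their median was 0.22. The 2 Tnni1 probes were 0.74 apart, and of 2678 genes with 2 measured probes 14.6% had a gap at least that wide. For 35.6% of those genes the probes went opposite ways.

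Tnni3 had the largest difference among the 7 genes, 0.62 or 1.54-fold, from 0.78 on A_51_P386983 and 0.46 on A_52_P563123. Its levels lay at -3.86 and -3.17 in tumour 2 and at -4.64 and -3.63 in tumour 1. The dimmer probe stood 1.14 above the lowest level called on array 1, and with normexp background correction the differences of the 2 probes shrank to 0.38 and 0.25.

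**Figure D3:**
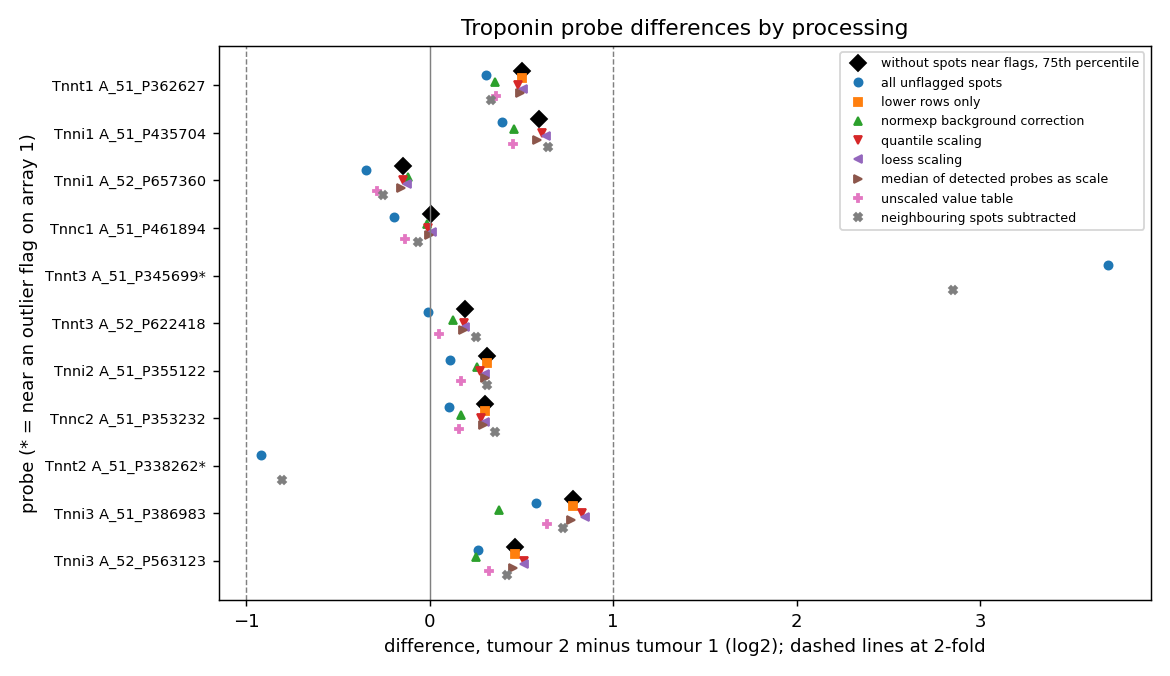
Difference between the tumours (log2, tumour 2 minus tumour 1) of the 11 detected troponin probes under each processing, 1 row per probe and 1 symbol per processing, with dashed lines at 2-fold. Away from flags (black diamonds) the probes lie between -0.15 and 0.78, and only the Tnnt3 probe near flags passes 2-fold, at 3.70.

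All 7 measured members had a difference above 0, from 0.01 to 0.62 with a median of 0.30, except that Tnnc1 moved below 0 with quantile scaling (-0.01), with the median of detected probes as scale (-0.0058), after normexp (-0.01), with neighbouring spots subtracted (-0.06), in the unscaled values (-0.14) and with all unflagged spots (-0.19), and that Tnni1 stood at -0.15 when its brightest probe was used. Among all genes 48.4% were above 0 and the median was -0.01, which the unscaled values shift to -0.16. Of the 7 differences, 4 were larger than the technical SD, which holds only scatter within each array, and 3 were not. Of all genes 46.2% were at least as far apart as Tnnc2, the smallest of the 4. For Tnni1, the largest of the 3, this share was 57.5%, so the count of 4 lies near the share of all genes. Only Tnnt1 and Tnni3 stayed above the technical SD in the unscaled values, where Tnni2 stood at 0.17 and Tnnc2 at 0.16, and after normexp, where they stood at 0.26 and 0.17. With all unflagged spots the change of scale lowered each probe away from flags by the same amount, as for Tnnt1 from 0.50 to 0.31. In that setting 6 of 8 members were above 0, where 33.8% of all genes were. There 1 member, Tnnt3, was at least 2-fold higher in tumour 2 and none was 2-fold higher in tumour 1, beside 5.15% and 6.44% of all genes (11.6% in either direction). The added control RNA (spike-ins) also differed between the arrays. Of 8 spike-in probes with signals above the lowest called, 7 were higher on array 2 by 0.83 to 0.98 and 1 was lower by 1.04 on the log2 scale (a difference of -1.04), so all 7 troponin differences were smaller than those of the spike-ins. The part of this array difference in the troponin values was not tested. In whole tumours a different number of muscle-type cells and a different amount of RNA per cell cannot be told apart.

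The Tnnt3 probe A_51_P345699 gave the widest gap of all troponin probes. Its processed signal was 701 in tumour 2 but 51.9 in tumour 1. On the scale of all unflagged spots this is 3.70, or 13.0-fold, whereas the other Tnnt3 probe differed there by -0.01. On array 1 its spot had 3 flagged spots within 2 rows and columns. The 10 unflagged detected spots in that same area differed by a median of 2.89, from 0.28 to 5.52, and the 52 within 5 rows and columns by a median of 0.85. With the median of those 52 neighbours subtracted, a step chosen after seeing the data, the probe differed by 2.85. That wider median is smaller than the 2.89 of the 10 closest spots, so the step cannot tell a local loss of signal from a tumour difference. The part of the array in this gap was not tested.

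The Tnnt2 probe A_51_P338262 had the lowest difference of the detected troponin probes with all unflagged spots, at -0.92, or 1.89-fold higher in tumour 1. That is close to the repeat-spot SD of 0.88 that array 1 has with these spots, and the Tnni1 probe A_52_P657360 was also lower there, at -0.34. It had 1 flagged spot within 2 rows and columns on array 1. Its 14 unflagged detected neighbours in that area differed by a median of -0.23, from -0.89 to 0.82, close to the median of -0.18 over all genes with these spots, and with neighbours within 5 rows and columns subtracted the probe differed by -0.80. The technical SD of 0.27 was measured away from flags and does not cover this spot.

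Troponin T and I genes lie side by side in the mouse genome, which allows a comparison by position. In the order of RefSeq genes, Tnnt1 and Tnni3 have no gene between them, Tnnt2 and Tnni1 have only Lad1, and Tnnt3 and Tnni2 have 2 genes, of which Lsp1 codes for protein. The members of the first pair differed by 0.50 and 0.62, although one is a slow and the other a cardiac isoform. In the fast pair Tnnt3 differed by 0.19 and Tnni2 by 0.31. In the remaining pair Tnnt2 had a value only with all unflagged spots, -0.92, where Tnni1 stood at 0.03. By class, the median was 0.30 for the fast genes and 0.22 for the slow genes, the second being the value of Tnni1 alone, and with the brightest probe of each gene it was 0.30 and 0.0056.

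The partners of troponin on the thin filament were largely detected too. Of 20 listed genes on the array 16 had a spot away from flags and 14 were detected in both tumours, where 61.2% of all genes were. None was 2-fold apart, and 11 were higher and 3 lower in tumour 2, where 48.4% of all genes were higher. The median was 0.11, which turned to -0.03 in the unscaled values and to -0.06 with all unflagged spots. With those spots 8 of 18 measured genes were higher and 10 lower in tumour 2, where 33.8% of all genes were higher. Of the 18, 1, the skeletal actin Acta1, was more than 2-fold apart, at 5.71. The shares of all genes at least 2-fold apart were 6.45% away from flags and 11.6% with all unflagged spots. The tropomyosins, on which troponin T rests, lay at 4.83 in tumour 2 and 4.73 in tumour 1 for Tpm1, at 3.14 and 2.42 for Tpm2, and at 3.18 and 2.76 for Tpm3, in the same order. Tpm2 had the largest difference of the list, 0.72, and Tpm4, a tropomyosin of non-muscle cells, differed by -0.01. The giant filament ruler Neb differed by 0.08 and the actin nucleator Lmod3 by 0.17, while the pointed-end cap Tmod1 differed by 0.69. The actins Acta1 and Actc1 had no spot away from flags.

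Most measured genes of the fast and slow fibre lists were higher in tumour 2. This held for 6 of 7 fast fibre genes, where 48.4% of all genes were above 0. Their median was 0.48, with Myh4, a fast myosin heavy chain, at 1.19 and the fast calcium pump Atp2a1 at 0.48. The exception was the fast light chain Mylpf at -0.07. The fast myosin Myh1 was detected in tumour 2 only away from flags, but in both tumours with all unflagged spots, where it differed by 4.91. Of 7 slow fibre genes 5 were higher, with a median of 0.42 that was 0.10 in the brighter 50% of detected probes, among them the slow myosin Myh7 at 0.74 and the slow light chain Myl3 at 0.35. The light chain Myl6b at -0.70 and the Z-disc protein gene Csrp3 at -0.37 were lower in tumour 2. The calcium pump Atp2a2 stood at 1.81 but at -0.11 with all unflagged spots, and its 2 probes away from flags disagreed, at -0.22 and 3.85. Embryonic muscle genes were higher in 5 of 6 cases, with a median of 0.60 (0.29 without a filter on dim probes, 0.12 in the brighter 50% of detected probes) and Myh3, the embryonic myosin, at 1.07. Tpm3 stands in the thin filament and the slow fibre list.

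Other heart genes were detected in part. Of 9 listed cardiac genes with a spot away from flags 3 were detected in both tumours, where 61.2% of all genes were, and with all unflagged spots, the setting in which Tnnt2 is detected, 5 of 10 were, now with Actc1 and Ryr2, beside 59.2% of all genes. The 3 genes away from flags were the natriuretic peptide genes Nppa and Nppb and the cardiac myosin-binding protein Mybpc3. They differed by -0.15 to -0.09, with none higher in tumour 2, where 48.4% of all genes were higher. With all unflagged spots 2 of the 5 were higher in tumour 2, Actc1 at 0.81 and Ryr2 at 0.69, and 3 were lower. In that setting 33.8% of all genes were higher. Away from flags the software did not call the heart myosin Myh6, the atrial light chain Myl7, the calcium-release channel Ryr2 or the heart transcription factors Gata4, Nkx2-5 and Tbx5 above background.

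**Figure D4:**
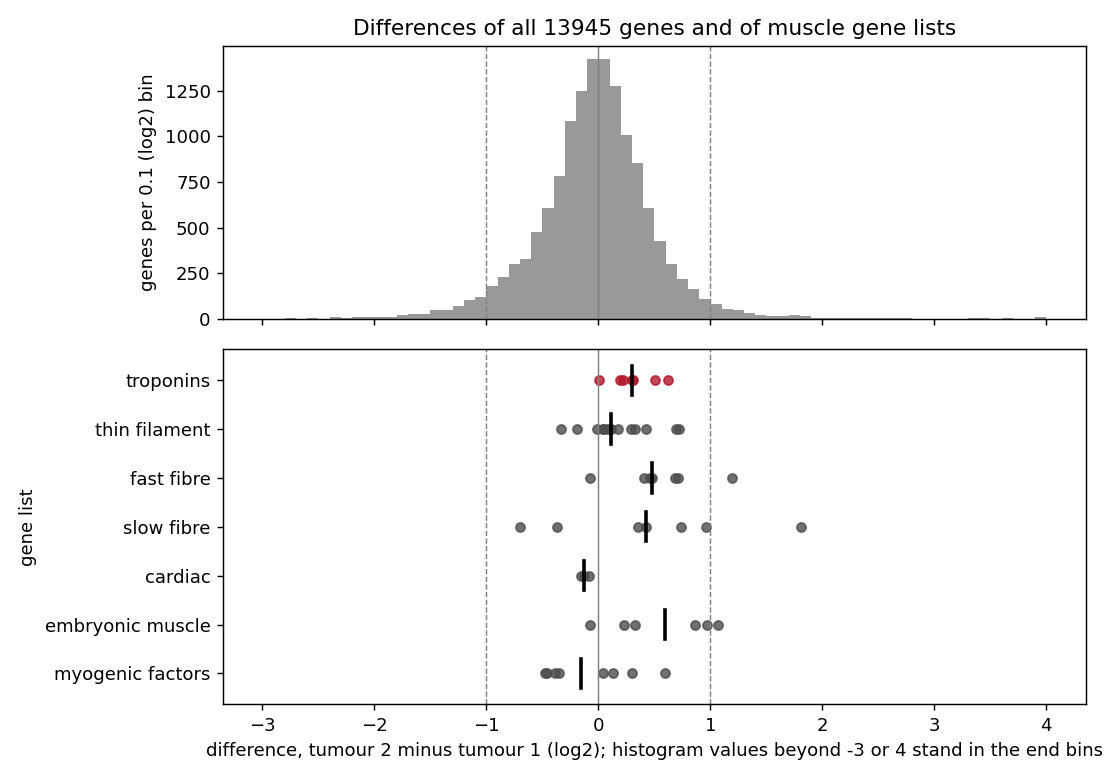
Upper panel, histogram of the differences of all 13945 genes measured (log2, tumour 2 minus tumour 1); lower panel, the measured genes of each list as points with the list median as a bar. The troponins lie between 0.01 and 0.62 inside the dashed 2-fold lines, and the cardiac and myogenic factor lists have medians of -0.12 and -0.15 (0.05 for the myogenic factors in the brighter 50% of detected probes).

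Regulators that act on muscle genes in development were measured too. Of 10 myogenic factors 8 were detected in both tumours, where 61.2% of all genes were. Among the 8 were Myog at -2.11 in tumour 2 and -2.24 in tumour 1 and Tead4, a factor that binds the MCAT element, at 2.19 and 1.59 in the same order. Myod1 lay at -5.59 and -5.24, near the lowest level called, -6.19 and -5.78. The list was split, 4 higher and 4 lower in tumour 2, where 48.4% of all genes were higher. Its median was -0.15 and turned to 0.05 in the brighter 50% of detected probes. Of 4 satellite cell markers, Pax7 and Myf5 were detected in neither tumour, Vcam1 was detected in both and differed by 0.30, and Cd34 had no spot away from flags but was detected in both with all unflagged spots, at a difference of 5.02.

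Markers of some other cell types differed between the tumours beside the troponins. Of 5 keratinocyte markers 2 were detected on both arrays, Krt5 higher in tumour 2 by 3.55 and Krt14 by 3.64, with a summed level of 0.967 in tumour 2 and 0.0791 in tumour 1 in units of the 75th percentile. Away from flags Krt10 was detected in tumour 2 only and Krt1 in tumour 1 only, and Trp63 was detected on neither array. With all unflagged spots 3 of the 5 were detected on both arrays, beside 59.2% of all genes, now with Krt10, which differed by -0.07. All 5 fibroblast markers were lower in tumour 2, Dcn by -1.12 and Mfap5 by -1.95, with sums of 86.6 and 94.2 in the same order. All 5 endothelial markers were lower too, with a median difference of -0.45 and sums of 2.10 and 3.64. Of all genes 61.2% were detected in both tumours away from flags, and 48.4% of those measured were higher in tumour 2. At least 2-fold higher were 2.59% of all genes in tumour 2 and 3.87% in tumour 1. With all unflagged spots 4 endothelial markers were lower and 1, Pecam1, was higher in tumour 2, at 0.14, where 33.8% of all genes were higher. Of 5 smooth muscle markers 4 were detected and Myh11 was not. Of these 4, 2 were higher and 2 lower in tumour 2, with sums of 1.80 in tumour 2 and 1.62 in tumour 1. The median difference of these markers was 0.06 and turned to -0.14 with all unflagged spots. Of 4 macrophage markers with a spot away from flags 3 were detected in both tumours, 1 higher and 2 lower in tumour 2. Their median was -0.06, with sums of 2.40 in tumour 2 and 2.56 in tumour 1. Each sum is carried by its brightest probes and is read only between the tumours. The part of these cell types in the troponin differences was not tested.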

How the data were processed

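Total RNA of 2 tumours was labelled with Cy3 and hybridised to 1 single-colour array each, on 1 slide and in 1 scan, so slide and scan could not be tested as batches. The deposited intensity values were made by the authors with Agilent's Feature Extraction software. Its version is 9.1.3.1 in the headers of the files and 8 in the submitters' processing notes. The deposited value table equals the processed signal intensity at every spot, unscaled and uncentred, with column medians of 67.5 for tumour 2 and 63.3 for tumour 1. The file of tumour 1 is rounded to 3 significant digits. Of its gene names 47 differ from those of the other file, none of them a troponin, so names came from the file of tumour 2.

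Of the non-control spots, 28680 (66.1%) on array 2 and 27014 (62.3%) on array 1 were well above background, which sets the depth of each array. Spots flagged on either array, and spots near flags as described, were left out. For a level, the 75th percentile of the array (901.9 on array 2, 995 on array 1) was divided out of the processed signal before taking log2. Detection of a probe required 50% or more of its spots to be called above background by the software, and a gene's difference is the median over its probes detected on both arrays. Accessions of 22951 of 41174 probes matched RefSeq GRCm38.p6, used for names and gene order. The step that leaves out spots near flags, the members and all lists were chosen with earlier results of these data known. The text may name every member, every gene of the muscle lists and, of other cell type lists, the first 2 and those at least 2-fold apart. Markers not detected were named after their values were seen. The normexp alternative used an offset of 50, and loess a span of 0.3. On simulated arrays made from array 2 over 14720 genes, 100 of 100 genes changed 4-fold and 37 of 100 changed 2-fold passed the 2-fold threshold. Tools were Python 3.11.15 and, for normexp, limma 3.58.1 in R 4.3.3. No genome build of the array is given in the sources used here.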

Additional observations from a re-analysis of the deposited data

How the results depend on the processing

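Normexp moved 7 of 9 troponin levels by more than the SD of the 2 tumours, among them Tnni3 A_51_P386983 to -3.17 in place of -4.25. All unflagged spots moved 5 of 9 by that measure, but there only the 75th percentile changed and all 9 levels rose by the same amount. Tnnc2 went from 2.03 to 2.30 and Tnni3 A_51_P386983 from -4.25 to -3.99. The count of 5 therefore only shows which probes had a small SD. With all unflagged spots 8 genes were detected in place of 7, and 1 troponin gene, Tnnt3, was at least 2-fold higher in tumour 2 (1.85 from 2 probes at 3.70 and -0.01), where 5.15% of 16812 genes were. No other alternative gave a troponin gene 2-fold apart except subtraction of neighbouring spots, which also keeps the Tnnt3 spot near flags (1.55). The median of the members was 0.30 and ranged from 0.11 with all unflagged spots to 0.41 in the lower rows, where 4 members remain. Tnnc1 was at 0.01 away from flags but below 0 with all unflagged spots (-0.19), with neighbouring spots subtracted (-0.06), in the unscaled values (-0.14), after normexp (-0.01), with quantile scaling (-0.01) and with median scaling (-0.0058), and Tnni1 was at -0.15 when the brightest probe stood for the gene. With all unflagged spots, in the unscaled values and with median scaling, only the scale changed for probes away from flags. Each of these settings lowered all such probes by the same amount, so they are not separate checks of Tnnc1. The slow class, at 0.22, stood at 0.51 in the lower rows, where Tnnt1 alone is left, at 0.08 in the unscaled values, at 0.03 with all unflagged spots and at 0.0056 with the brightest probes. The embryonic list moved to 0.29 without a filter on dim probes and to 0.12 with the brighter 50% of detected probes, which took the slow fibre list to 0.10 over 2 genes; there fewer genes count, and otherwise the cause was not tested. Over all genes, 900 were 2-fold apart away from flags and 1949 with all unflagged spots, and after normexp 172 were higher in tumour 2 and 150 in tumour 1. Of these calls 40.1% were higher in tumour 2 in the main setting, 53.4% after normexp and 24.4% in the unscaled value table. Leaving out each tumour in turn left 7 to 7 genes detected in the other and no difference. No paired analysis was possible because all samples form 1 group. Signal over background limits Tnni3 most, and 1 tumour on each side limits every difference.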

Other observations

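With all unflagged spots, 1.73% of the 3691 genes with 2 measured probes had probes at least as far apart as the 3.70 of Tnnt3. The Atp2a2 probe A_52_P168097 had no flag of array 1 within 2 rows and columns, yet its processed signal was 1259 in tumour 2 and 96.3 in tumour 1, while A_51_P451075 had 1951 and 2510 in the same order. The 34 detected neighbours of the first spot, within 5 rows and columns, differed by a median of 1.16, and the 56 neighbours of the second by 0.01. For the 10 troponin spots away from flags the median of such neighbours lay between -0.26 and -0.03, against -0.18 over all genes with these spots.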
